A study of Mus musculus with 14 samples.

Results

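The genes described here are 35 genes of the amino acid stress response and of the unfolded protein response of the endoplasmic reticulum (ER), taken by symbol from a count table of 55291 gene symbols. All 35 were in the table and all 35 passed the filter on low counts, as did 17933 genes in all. They comprise 8 genes of the integrated stress response, 6 enzymes of serine, one-carbon and asparagine synthesis, 3 genes of amino acid transporters, 4 genes of ER stress sensors and their transcription factors, 12 ER chaperones and folding factors, and 2 genes of ER-associated degradation.

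RNA was sequenced from lung tumor nodules, snap frozen, of the mouse strain C57BL/6, whose genotype is given as HER2 Exon20YVMA, an insertion in the kinase domain of the receptor HER2 that every group, vehicle included, carries. The 5 groups were nodules with acquired resistance to mobocertinib monotherapy (3 libraries), nodules given mobocertinib together with T-DM1 (the combination, 3 libraries), T-DM1 alone (3 libraries), mobocertinib alone (3 libraries) and vehicle (2 libraries), under long-term treatment. Mobocertinib (TAK-788) blocks the kinase of EGFR and HER2 forms with exon 20 insertions, and T-DM1 is an antibody-drug conjugate that brings a microtubule poison to cells with HER2 on their surface. The labels give no dose, duration, age, sex or promoter of the allele and leave unsaid whether the libraries stem from different animals, so a p-value reflects the spread among these libraries alone, which may be technical. Libraries are numbered within a group only to name them. Each treated or resistant group was compared with vehicle, the combination with either drug alone, and T-DM1 and resistant nodules with mobocertinib.

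Cells answer a shortage of amino acids or a load of unfolded protein in the ER through a shared set of factors. The kinase PERK, encoded by Eif2ak3, and its relatives phosphorylate the translation factor eIF2alpha, which slows protein synthesis in general and favours translation of ATF4, a transcription factor that turns on genes of amino acid synthesis and transport. The ER sensors IRE1alpha, encoded by Ern1, and ATF6 act in parallel, IRE1alpha by splicing the messenger RNA of Xbp1, and the resulting factors turn on ER chaperones and degradation genes. Much of this control acts on translation, splicing or protein cleavage, which gene-level counts do not measure.

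Promoters of 32 of the 35 genes were matched in RefSeq (build GRCm38.p6), as windows of 300 bases that run 250 bases before to 50 after the start of the gene. Slc7a5, Atf6 and Manf had no match and were not searched. Both strands were searched for 4 motifs. The ER stress response element ERSE, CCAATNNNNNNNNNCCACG, was in the windows of 7 genes (Hspa5, Hsp90b1, Calr, Canx, Pdia6, Dnajc3 and Creld2) and in 0.119% of all 32851 windows. ERSE-II, ATTGGNCCACG, was in the window of Herpud1 and in 0.0365% of all windows. The core of the C/EBP-ATF response element (CARE), TGATGNAA, was in the windows of 6 genes (Trib3, Asns, Chac1, Slc7a11, Atf3 and Herpud1) and in 3.97% of all windows. The core of the unfolded protein response element, TGACGTGG, was in 0 of the 32 genes' windows and 0.676% of all windows. A match describes these letters and does not show that a factor binds there. The 5 windows below are shown because they belong to the chaperone, enzyme, degradation and transporter genes whose values are set out further on, and they carry each matched motif. They are written 5′ to 3′ on the strand of the gene, and capitals mark the motif, on either strand: ERSE in Hspa5 (chr2:34771840-34772139, plus strand) and at both sites of Hsp90b1 (chr10:86705395-86705694, minus strand), the CARE core in Asns (chr6:7693160-7693459, minus strand) and at both sites of Slc7a11 (chr3:50443564-50443863, minus strand), and the CARE core followed by ERSE-II in Herpud1 (chr8:94386179-94386478, plus strand).
Hspa5: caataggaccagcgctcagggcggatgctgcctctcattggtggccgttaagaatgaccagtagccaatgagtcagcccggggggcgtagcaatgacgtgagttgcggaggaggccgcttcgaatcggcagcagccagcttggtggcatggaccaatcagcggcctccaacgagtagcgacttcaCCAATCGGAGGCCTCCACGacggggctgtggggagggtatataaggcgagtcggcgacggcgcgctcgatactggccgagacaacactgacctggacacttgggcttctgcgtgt
Hsp90b1: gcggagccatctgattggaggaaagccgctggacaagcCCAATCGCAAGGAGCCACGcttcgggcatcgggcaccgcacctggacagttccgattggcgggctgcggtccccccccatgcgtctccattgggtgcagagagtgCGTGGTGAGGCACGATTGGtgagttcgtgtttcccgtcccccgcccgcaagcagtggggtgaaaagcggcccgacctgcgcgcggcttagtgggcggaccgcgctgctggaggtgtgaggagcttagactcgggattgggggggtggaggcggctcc
Asns: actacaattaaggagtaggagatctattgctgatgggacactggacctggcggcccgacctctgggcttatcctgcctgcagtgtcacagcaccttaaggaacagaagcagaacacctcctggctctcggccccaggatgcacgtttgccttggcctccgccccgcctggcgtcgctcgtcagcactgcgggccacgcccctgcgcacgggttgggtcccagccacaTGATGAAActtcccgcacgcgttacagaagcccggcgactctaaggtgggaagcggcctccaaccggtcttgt
Slc7a11: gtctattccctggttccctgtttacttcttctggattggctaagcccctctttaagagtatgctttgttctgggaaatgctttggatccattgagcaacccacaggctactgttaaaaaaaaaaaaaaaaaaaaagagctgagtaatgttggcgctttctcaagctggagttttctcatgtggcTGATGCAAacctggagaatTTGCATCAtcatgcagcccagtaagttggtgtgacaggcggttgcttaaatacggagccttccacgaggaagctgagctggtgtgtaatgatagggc
Herpud1: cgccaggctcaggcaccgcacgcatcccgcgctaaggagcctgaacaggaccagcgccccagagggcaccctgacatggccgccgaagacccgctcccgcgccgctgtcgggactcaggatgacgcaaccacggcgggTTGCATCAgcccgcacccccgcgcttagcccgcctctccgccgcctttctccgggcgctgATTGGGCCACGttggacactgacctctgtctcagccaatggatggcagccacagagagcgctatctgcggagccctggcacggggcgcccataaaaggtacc

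Library totals were 19.3 to 31.3 M counts. The 2 vehicle libraries differed from the other 12 before any of these genes was considered. Messenger RNAs under 1 kb took 6.80% to 12% of the counts in the 12 treated and resistant libraries, against 25.7% and 30.9% in vehicle, and those over 5 kb took 12.6% to 20.1%, against 6.13% and 4.51% in vehicle. CPM here are counts per 1 M of the library size times its TMM factor, a scaling factor between libraries. These factors were 0.677 and 0.542 in vehicle and 0.988 to 1.23 in the other 12 libraries. A factor below 1 raises CPM above counts scaled by library size alone, so overlap with vehicle below holds on this scale. Summed markers of alveolar macrophages were at 591 to 2836 CPM in resistant nodules, 851 to 1257 in the combination, 480 to 3673 in T-DM1, 1094 to 4117 in mobocertinib and 16428 and 18531 in vehicle. Summed markers of alveolar type 2 cells, a secretory lung cell, were at 9996 to 78883 CPM in the 12 treated and resistant libraries and at 142020 and 211197 CPM in vehicle. The median log2 fold change of these 8 markers against vehicle was -0.81 in resistant nodules, -1.72 in the combination, -0.78 in T-DM1 and -1.13 in mobocertinib. At an adjusted p below 0.05 in edgeR, 1, 2, 1 and 1 of the 8 were lower, against 19.0%, 17.4%, 14.9% and 16.1% of all genes. Epithelial markers were detected in every library, at 1046 to 3903 CPM summed. Endothelial markers, 7 genes, summed to 353 to 954 CPM in the 12 treated and resistant libraries and to 148 and 239 in vehicle. Of these, 4 were called higher in each comparison, against 22.0%, 17.6%, 16.7% and 16.8% of all genes. Fibroblast markers, 6 genes, summed to 340 to 3521 CPM in the 12 libraries and to 278 and 276 in vehicle. Of these, 3 were called higher in resistant nodules and 0 in the drug groups. Proliferation markers, 6 genes, summed to 16.8 to 55.3 CPM in resistant nodules and 22.8 to 36.8 in the combination. They summed to 79.0 to 137 CPM in T-DM1, 9.02 to 27.8 in mobocertinib and 112 and 117 in vehicle. The part of all these marker differences in the results below was not tested, and in bulk RNA fewer cells of a type and less RNA per cell cannot be told apart. Because the vehicle libraries hold more short RNA, every value against vehicle is followed where it matters by the same value after a correction of each library for transcript length and GC content.

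Per length, as the median over the 14 libraries of the authors' deposited TPM (abundance scaled by transcript length), the genes covered a wide span. The chaperone genes were highest, with Calr at 776 TPM, Hspa5 at 424, Pdia3 at 368 and Hsp90b1 at 353. Xbp1 stood at 182 TPM and Atf4 at 108, while the 3 sensor genes were low, with Eif2ak3 at 13.6, Atf6 at 13.5 and Ern1 at 11.1 TPM. Slc7a11 at 1.46 and Chac1 at 1.79 TPM were the lowest of the 35. Library vehicle 2 held the lowest CPM of 9 genes and the highest of 7. T-DM1 2 and resistant 3 each held the highest of 7, and resistant 2 the highest of 5 and the lowest of 7.

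**Figure D1:**
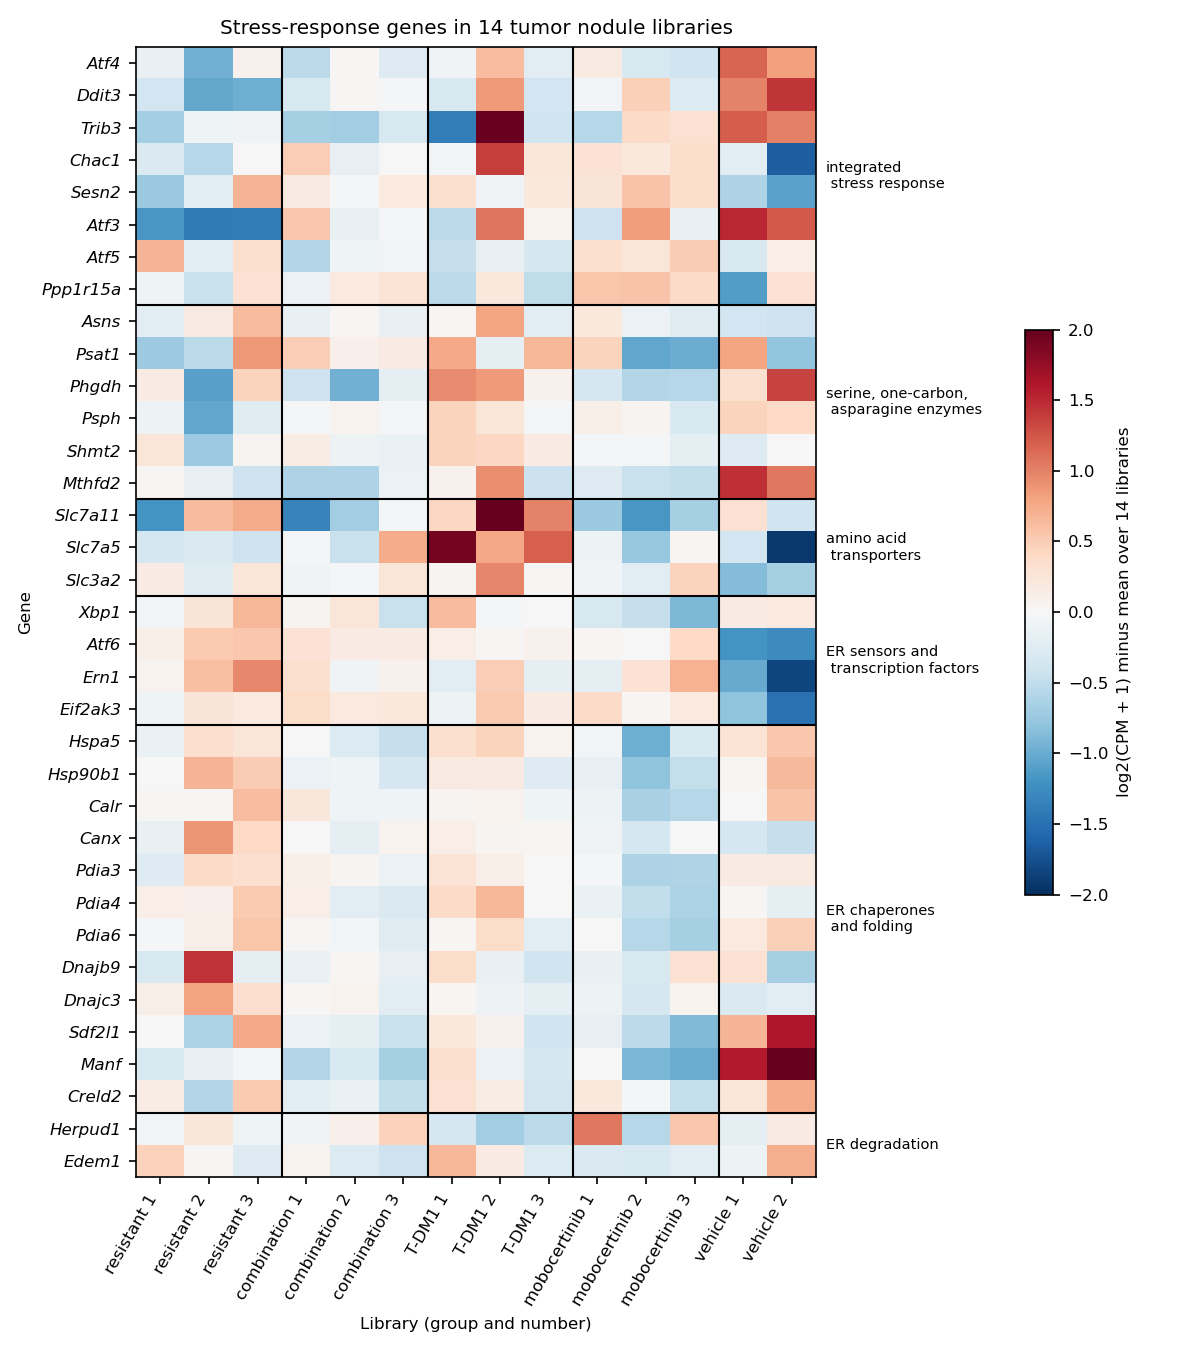
Each cell is log2(CPM + 1) of one gene (rows, grouped by role) in one library (columns, grouped by treatment), minus the mean of that gene over the 14 libraries; red is higher and blue lower, and the scale is cut at -2 and 2. The 2 vehicle columns are blue for Atf6, Ern1 and Eif2ak3 and red for Manf, Mthfd2, Ddit3 and Atf3, and T-DM1 2 is red for Slc7a11 and Trib3.

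Against vehicle, the 3 sensor genes were higher and the secreted ER factor Manf was lower in all 4 comparisons, while the target genes of ATF4 did not move as one. Among the 35 genes, edgeR's quasi-likelihood test at an adjusted p below 0.05 called 5 higher and 7 lower in resistant nodules, where 22.0% of all genes tested were called higher and 19.0% lower. It called 4 higher and 7 lower in the combination (17.6% and 17.4% of all genes), 6 higher and 3 lower in T-DM1 (16.7% and 14.9%), and 4 higher and 8 lower in mobocertinib (16.8% and 16.1%). As shares of the 35, the called higher were 14.3% in resistant nodules, 11.4% in the combination, 17.1% in T-DM1 and 11.4% in mobocertinib, and the called lower 20.0%, 20.0%, 8.57% and 22.9% in the same order, so these shares lie near those of all genes. The split depended on scaling. With upper-quartile factors 3 were called higher and 7 lower in resistant nodules, 3 and 9 in the combination, 5 and 5 in T-DM1, and 4 and 12 in mobocertinib, and on the deposited TPM limma called 24 and 0, 25 and 1, 27 and 0, and 24 and 1, with the median of all genes raised by 1.27, 1.18, 1.18 and 1.11 on the log2 scale. With TPM centred on each library's median the splits were 5 and 7, 4 and 7, 5 and 2, and 6 and 5. Median log2 fold changes of the 35 were 0.04 in resistant nodules, -0.15 in the combination, -0.05 in T-DM1 and -0.56 in mobocertinib, against 0.18, 0.08, 0.18 and 0.09 over all genes. With libraries left out in turn, that median ran in resistant nodules between -0.06 (without vehicle 1) and 0.27 (without vehicle 2), and was also below 0 without resistant 3 (-0.04). It ran in the combination between -0.22 (without combination 2) and -0.02 (without vehicle 2), with -0.04 without combination 3. In T-DM1 it ran between -0.16 (without vehicle 1) and 0.13 (without vehicle 2), with 0.07 without T-DM1 3. In mobocertinib it ran between -0.63 (without mobocertinib 1) and -0.29 (without mobocertinib 3), with -0.31 without vehicle 2. The 4 comparisons share the 2 vehicle libraries, so a gene that is high or low in vehicle enters all 4. Lack of overlap with vehicle was common. Of all 17933 genes, 5165 lay wholly above vehicle and 4595 wholly below in resistant nodules, and 5967 and 5355 in the combination. In T-DM1 these were 5766 and 4664, and in mobocertinib 5570 and 5075. Of the 35, they were 8 and 7, 9 and 14, 12 and 7, and 9 and 18 in the same order. Of the 35 genes, 3 were called higher in all 4 comparisons (Atf6, Ern1 and Eif2ak3), 3 lower in all 4 (Ddit3, Sdf2l1 and Manf), and 17 in none. How many of all genes tested were called in all 4 is not given here, so these counts have no background beside them.

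Of the 4 genes for sensors and their transcription factor, 3 were called in every comparison with vehicle. Atf6 (mm10 chr1:170704674-170867771, minus strand), the ER membrane protein that is cut to release a transcription factor, was at 69.4, 91.8 and 92.8 CPM in resistant nodules, 78.4, 71.6 and 71.4 CPM in the combination, 69.7, 64.8 and 67.4 CPM in T-DM1, 65.2, 63.6 and 84.1 CPM in mobocertinib, and 27.4 and 25.9 CPM in vehicle. Every treated or resistant library lay above both vehicle libraries, with no overlap. Its log2 fold changes against vehicle were 1.67 ± 0.21 (SE) in resistant nodules, 1.47 ± 0.21 in the combination, 1.33 ± 0.21 in T-DM1 and 1.41 ± 0.21 in mobocertinib (edgeR adjusted p = 0.000125, 0.000383, 0.000768 and 0.000576). Ern1 (chr11:106394650-106487852, minus strand), the kinase and endonuclease IRE1alpha, was at 48.1, 69.8 and 90.1 CPM in resistant nodules, 57.3, 43.2 and 48.4 CPM in the combination, 38.8, 64.5 and 39.9 CPM in T-DM1, 40.1, 56.0 and 74.3 CPM in mobocertinib, and 22.3 and 12.1 CPM in vehicle. Again no library overlapped the vehicle pair, although the vehicle libraries themselves differed by more than those of Atf6. The log2 fold changes of Ern1 were 2.01 ± 0.39, 1.53 ± 0.38, 1.47 ± 0.38 and 1.72 ± 0.38 in resistant nodules, the combination, T-DM1 and mobocertinib (edgeR adjusted p = 0.00158, 0.00864, 0.0116 and 0.00516). The call was lost without vehicle 2 in the combination (adjusted p = 0.0649) and in T-DM1 (adjusted p = 0.0875).

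Eif2ak3 (chr6:70844515-70905245, plus strand), the kinase PERK, was at 34.8, 44.4 and 42.6 CPM in resistant nodules, 48.3, 42.5 and 43.1 CPM in the combination, 34.6, 53.8 and 41.7 CPM in T-DM1, 48.7, 37.8 and 42.5 CPM in mobocertinib, and 20.8 and 12.6 CPM in vehicle. The 4 treated and resistant groups covered much the same range, and all of it lay above vehicle. Its log2 fold changes were 1.28 ± 0.27, 1.41 ± 0.27, 1.37 ± 0.27 and 1.36 ± 0.27 in the same order (edgeR adjusted p = 0.00256, 0.00197, 0.0027 and 0.00266). Xbp1, the transcription factor whose messenger IRE1alpha splices, was at 277, 344 and 457 CPM in resistant nodules, 299, 339 and 210 CPM in the combination, 443, 278 and 289 CPM in T-DM1, 230, 208 and 153 CPM in mobocertinib, and 321 and 328 CPM in vehicle. Mobocertinib libraries all lay below vehicle, and the other groups overlapped it. Xbp1 was not called in any of the 4 comparisons (edgeR adjusted p = 0.72, 0.643, 0.907 and 0.0881 in resistant nodules, the combination, T-DM1 and mobocertinib).

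The longest annotated transcripts of the 3 called sensor genes are long, at 7246 nt for Atf6, 6946 nt for Ern1 and 4513 nt for Eif2ak3. After the length and GC correction, Eif2ak3 was still called higher in all 4 comparisons, with log2 fold changes of 0.79 in resistant nodules, 0.98 in the combination, 0.96 in T-DM1 and 0.94 in mobocertinib (edgeR adjusted p = 0.0291, 0.0133, 0.0163 and 0.017). Atf6 was called with the correction in the combination (0.55, adjusted p = 0.0356) and in mobocertinib (0.51, adjusted p = 0.0485) and not in resistant nodules (0.43, adjusted p = 0.0753) or T-DM1 (0.47, adjusted p = 0.065). Ern1 was called in none, at 0.76, 0.50, 0.52 and 0.69 in resistant nodules, the combination, T-DM1 and mobocertinib (edgeR adjusted p = 0.0874, 0.263, 0.25 and 0.133). Some 8.05% of the exon bases of Eif2ak3 are shared with another annotated gene, and the sources used here do not give the strand setting of the counts, so its counts are uncertain by that overlap.

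**Figure D2:**
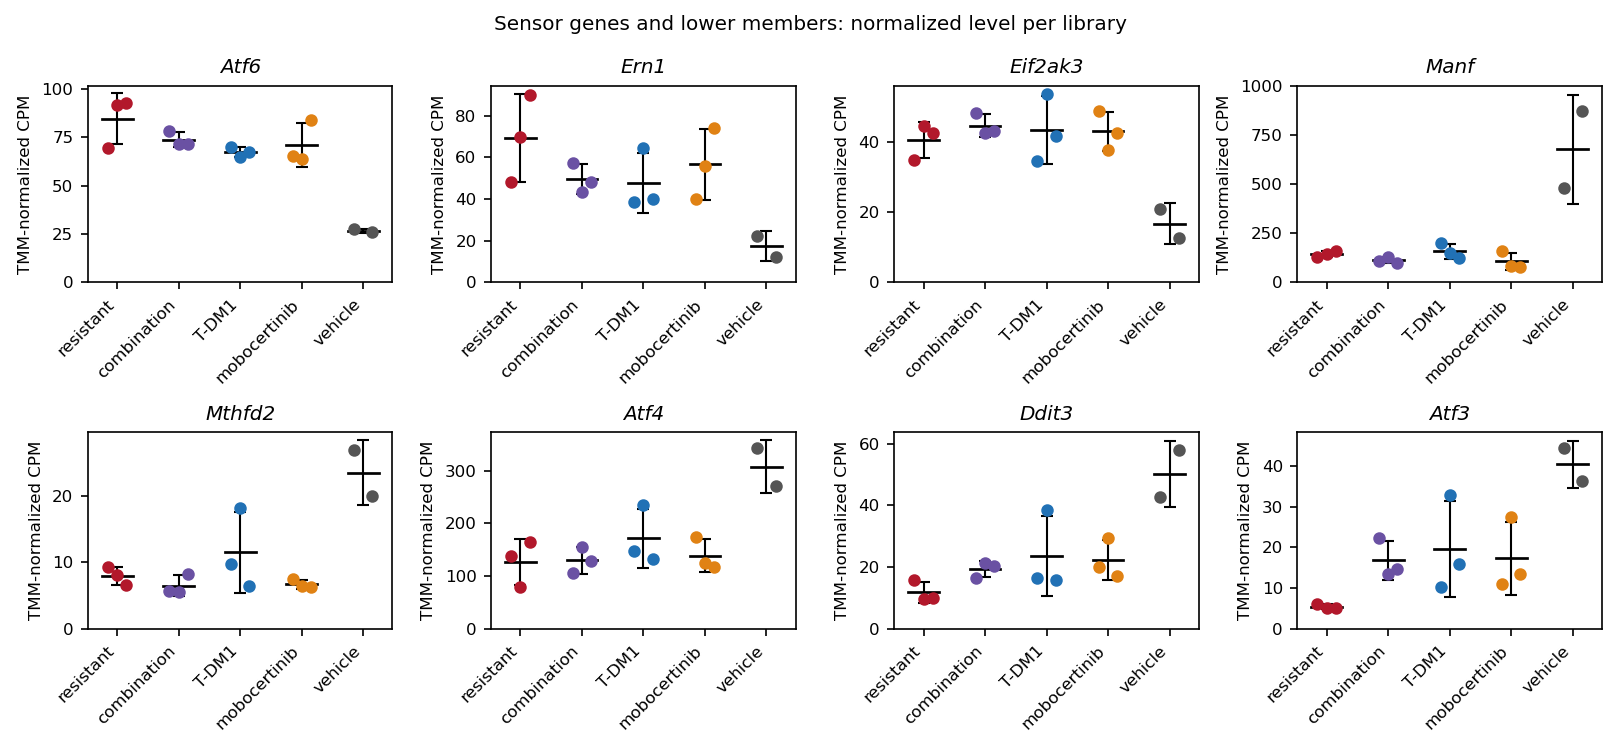
TMM-normalized CPM (vertical axes, starting at 0) of 8 genes in each library, by group; points are libraries, horizontal bars the mean and error bars the SD (n = 3, and n = 2 for vehicle). Vehicle libraries lie below all others for Atf6, Ern1 and Eif2ak3 and above all others for Manf, Mthfd2, Atf4, Ddit3 and Atf3.

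The transcription factors of the integrated stress response were lower than in vehicle where they were called. Atf4 (chr15:80255184-80257541, plus strand), the factor at the centre of the response, was at 138, 78.4 and 164 CPM in resistant nodules, 106, 156 and 128 CPM in the combination, 147, 236 and 132 CPM in T-DM1, 175, 124 and 117 CPM in mobocertinib, and 344 and 272 CPM in vehicle. Both vehicle libraries lay above every other library, and T-DM1 2 came nearest to them. Atf4 fell by 1.29 ± 0.34 on the log2 scale in resistant nodules, by 1.25 ± 0.34 in the combination and by 1.15 ± 0.34 in mobocertinib (edgeR adjusted p = 0.00982, 0.0137 and 0.0211), and its log2 fold change in T-DM1 was -0.85 ± 0.34 (adjusted p = 0.0743). The Atf4 call did not hold without vehicle 1 in resistant nodules (adjusted p = 0.0624), without vehicle 1, vehicle 2, combination 1 or combination 3 in the combination (adjusted p up to 0.0786), and without vehicle 1, vehicle 2, mobocertinib 2 or mobocertinib 3 in mobocertinib (adjusted p up to 0.108). With the length and GC correction it was called in the combination alone (-0.84, adjusted p = 0.0379).

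Ddit3, the transcription factor CHOP, was at 15.8, 9.75 and 10.1 CPM in resistant nodules, 16.5, 21.2 and 20.4 CPM in the combination, 16.6, 38.4 and 15.8 CPM in T-DM1, 20.1, 29.6 and 17.1 CPM in mobocertinib, and 42.7 and 57.9 CPM in vehicle. All 12 other libraries lay below vehicle, and resistant nodules were the lowest group. Its log2 fold changes were -2.08 ± 0.39 in resistant nodules, -1.37 ± 0.39 in the combination, -1.09 ± 0.39 in T-DM1 and -1.17 ± 0.39 in mobocertinib (edgeR adjusted p = 0.00133, 0.0162, 0.0474 and 0.0342). The longest transcript of Ddit3 is short, at 969 nt, and with the length and GC correction its sign turned in 3 comparisons, to 0.26 in the combination, 0.45 in T-DM1 and 0.34 in mobocertinib, and it was called in none (edgeR adjusted p = 0.548 in resistant nodules, at -0.33, and 0.665, 0.435 and 0.55 in the other comparisons). The uncorrected call was also lost without vehicle 2 or combination 1 in the combination (adjusted p up to 0.158), without vehicle 1, vehicle 2, T-DM1 1 or T-DM1 3 in T-DM1 (up to 0.304), and without vehicle 2, mobocertinib 1 or mobocertinib 3 in mobocertinib (up to 0.255). Some 10.9% of its exon bases are shared with other annotated genes.

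Atf3, a stress-induced transcription factor, was at 6.11, 5.02 and 5.10 CPM in resistant nodules, 22.2, 13.4 and 14.8 CPM in the combination, 10.2, 32.8 and 15.8 CPM in T-DM1, 11, 27.5 and 13.4 CPM in mobocertinib, and 44.5 and 36.3 CPM in vehicle. Resistant nodules formed a tight low group, below every other library of the series, and vehicle lay above every other. Atf3 fell by 2.90 ± 0.48 on the log2 scale in resistant nodules (edgeR adjusted p = 0.000571), also with the length and GC correction (by 2.21, adjusted p = 0.00497) and whichever library was left out. In the combination it was called at -1.27 ± 0.46 (adjusted p = 0.0493), but not with the correction (adjusted p = 0.254) nor without any one of combination 1, 2 or 3 or vehicle 1 or 2 (adjusted p up to 0.17).

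Sesn2, a stress-induced regulator that restrains mTORC1, was at 32.4, 47.3 and 88.7 CPM in resistant nodules, 62.4, 53.5 and 63.4 CPM in the combination, 69.4, 52.2 and 63.6 CPM in T-DM1, 66.2, 82.3 and 70.3 CPM in mobocertinib, and 35.7 and 25.8 CPM in vehicle. Resistant 1 lay below vehicle 1, and the 3 drug groups lay above vehicle with no overlap. Sesn2 was called higher in the combination at 0.96 ± 0.35, in T-DM1 at 1.01 ± 0.35 and in mobocertinib at 1.25 ± 0.35 (edgeR adjusted p = 0.048, 0.0434 and 0.0173). No call held with the length and GC correction (adjusted p = 0.166, 0.117 and 0.0519), and each was lost without vehicle 2. Leaving out vehicle 1, combination 1, 2 or 3, T-DM1 1 or T-DM1 3 ended it too in the comparison that holds that library, except vehicle 1 in mobocertinib. Over the libraries left out, the adjusted p reached 0.19 in the combination, 0.191 in T-DM1 and 0.108 in mobocertinib.

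The other 4 genes of this role, Trib3, Chac1, Atf5 and Ppp1r15a, were called in none of the 4 comparisons. Trib3, a pseudokinase induced by ATF4 and CHOP, ranged from 2.93 CPM in T-DM1 1 to 39.4 CPM in T-DM1 2, and vehicle held 22.6 and 19.5 CPM. Chac1, an enzyme that degrades glutathione, was near the limit of detection at 0 to 7.21 CPM, with 0 counts in vehicle 2. With the length and GC correction Atf5 was called higher in resistant nodules (1.22, adjusted p = 0.00325) and in mobocertinib (0.92, adjusted p = 0.0157).

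Enzymes of serine and one-carbon synthesis split. Mthfd2, the mitochondrial enzyme of the folate cycle, was at 9.28, 8.01 and 6.54 CPM in resistant nodules, 5.60, 5.55 and 8.29 CPM in the combination, 9.75, 18.2 and 6.48 CPM in T-DM1, 7.47, 6.42 and 6.22 CPM in mobocertinib, and 26.9 and 20.0 CPM in vehicle. Vehicle lay above every other library, and T-DM1 2 stood closest to it. Mthfd2 fell by 1.56 ± 0.39 on the log2 scale in resistant nodules, by 1.85 ± 0.40 in the combination and by 1.81 ± 0.40 in mobocertinib (edgeR adjusted p = 0.00753, 0.00378 and 0.00472), and its value in T-DM1 was -1.03 (adjusted p = 0.0624). The calls in the combination and mobocertinib held whichever library was left out and with the length and GC correction (-1.39 and -1.37, adjusted p = 0.0194 and 0.0213). The call in resistant nodules was lost with the correction (adjusted p = 0.0624) and without vehicle 1 (adjusted p = 0.051).

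Phgdh, the first enzyme of serine synthesis, was at 14, 5.35 and 17.2 CPM in resistant nodules, 9.09, 5.87 and 10.8 CPM in the combination, 24.7, 23.1 and 13.2 CPM in T-DM1, 9.66, 7.90 and 8 CPM in mobocertinib, and 15.7 and 33.4 CPM in vehicle. The combination and mobocertinib libraries lay below both vehicle libraries, which were far apart. It was called lower in the combination at -1.51 ± 0.47 and in mobocertinib at -1.53 ± 0.47 (edgeR adjusted p = 0.0257 and 0.026), and neither call held with the length and GC correction (adjusted p = 0.0847 and 0.0839). The call in the combination was lost without vehicle 2, combination 1 or combination 2 (adjusted p up to 0.378), and that in mobocertinib without vehicle 2, mobocertinib 2 or mobocertinib 3 (adjusted p up to 0.367).

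Psph, the last enzyme of serine synthesis, was at 11.9, 5.73 and 10.7 CPM in resistant nodules against 17.9 and 17.3 CPM in vehicle, with no overlap. It was called lower there at -0.90 ± 0.31, and at -0.86 with the length and GC correction (edgeR adjusted p = 0.0341 and 0.0334). The call was lost without vehicle 1, vehicle 2 or resistant 2 (adjusted p up to 0.161), and 10.4% of the exon bases of Psph are shared with Cct6a.

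Asns, asparagine synthetase, was at 18.1, 24.0 and 33.1 CPM in resistant nodules, 18.9, 21.7 and 18.9 CPM in the combination, 21.6, 37.0 and 17.9 CPM in T-DM1, 24.5, 19.4 and 17.6 CPM in mobocertinib, and 16 and 15.6 CPM in vehicle. Every library of the other groups lay above the vehicle pair, some by little. Its log2 fold changes of 0.67 ± 0.33, 0.33 ± 0.33, 0.69 ± 0.33 and 0.38 ± 0.33 in resistant nodules, the combination, T-DM1 and mobocertinib were not called (edgeR adjusted p = 0.123, 0.461, 0.127 and 0.397). With the length and GC correction Asns was called higher in all 4, at 1.32, 0.91, 1.23 and 0.92 (adjusted p = 0.00824, 0.0457, 0.016 and 0.0451). Psat1 and Shmt2, of serine and glycine synthesis, were called in none without the correction, and Shmt2 in T-DM1 with it.

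Of the 3 transporter genes, Slc7a5 and Slc3a2, which encode the light and heavy chains of a carrier of large neutral amino acids, were called higher in T-DM1. Slc7a5 was at 18.6, 19.3 and 17.6 CPM in resistant nodules, 23.1, 17.2 and 40.3 CPM in the combination, 92.5, 41.5 and 55.9 CPM in T-DM1, 22.1, 13.7 and 24.5 CPM in mobocertinib, and 17.9 and 5.50 CPM in vehicle. The T-DM1 libraries were above every library of the other 4 groups. Slc7a5 was higher in T-DM1 than in vehicle by 2.43 ± 0.54 on the log2 scale (edgeR adjusted p = 0.00523), whichever library was left out, and by 2.22 with the length and GC correction (adjusted p = 0.0186). Slc3a2 was at 227, 171 and 241 CPM in resistant nodules, 193, 199 and 241 CPM in the combination, 210, 401 and 207 CPM in T-DM1, 193, 175 and 278 CPM in mobocertinib, and 111 and 127 CPM in vehicle. All 12 libraries lay above vehicle, and T-DM1 2 stood out. The T-DM1 value of 1.19 ± 0.33 was called (edgeR adjusted p = 0.0165; 0.0183 with the correction) and was lost without vehicle 1 or vehicle 2 (adjusted p up to 0.0739). In the other comparisons the adjusted p of Slc3a2 was 0.0559 in resistant nodules, 0.0662 in the combination and 0.0608 in mobocertinib. With the correction Slc3a2 was called higher in resistant nodules (0.96, adjusted p = 0.0299) and mobocertinib (0.89, adjusted p = 0.0475) and not in the combination (0.83, adjusted p = 0.0581). Slc7a11, the cystine carrier, was at 4.44 to 19.9 CPM in resistant nodules, 3.90 to 11.1 in the combination, 15.5 to 109 in T-DM1, 4.54 to 6.86 in mobocertinib and 14.4 and 8.47 in vehicle, and was called in none of the 4.

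Of the 12 chaperone genes, 2 were called higher and 2 lower in resistant nodules (22.0% and 19.0% of all genes), 0 and 2 in the combination (17.6% and 17.4%), 0 and 2 in T-DM1 (16.7% and 14.9%), and 0 and 4 in mobocertinib (16.8% and 16.1%). After the length and GC correction the counts were 3 higher (Canx, Dnajb9 and Creld2) and 1 lower in resistant nodules, 0 and 1 in the combination, 0 and 1 in T-DM1, and 0 and 2 in mobocertinib. That fit called 19.3% of all genes higher and 12.6% lower in resistant nodules, 16.2% and 10.8% in the combination, 15.1% and 9.30% in T-DM1, and 15.5% and 10.1% in mobocertinib. Manf (chr9:106838312-106891979, minus strand), a secreted factor of the ER lumen, was at 128, 143 and 157 CPM in resistant nodules, 106, 129 and 100 CPM in the combination, 199, 147 and 126 CPM in T-DM1, 158, 83.7 and 79.6 CPM in mobocertinib, and 480 and 874 CPM in vehicle. The lower vehicle library was still far above the highest of the other 12. Manf fell by 2.25 ± 0.34 in resistant nodules, by 2.60 ± 0.34 in the combination, by 2.10 ± 0.34 in T-DM1 and by 2.66 ± 0.35 in mobocertinib on the log2 scale (edgeR adjusted p = 0.000351, 0.000274, 0.000944 and 0.000347). These calls held whichever library was left out, and with the length and GC correction (-1.77, -2.24, -1.79 and -2.33; adjusted p = 0.00137, 0.000714, 0.0024 and 0.000666). Some 9.25% of the exon bases of Manf are shared with other annotated genes. On the deposited TPM without centring, where the median of all genes itself lies 1.11 to 1.27 above vehicle on the log2 scale, Manf was lower by 0.30 in resistant nodules and T-DM1 (not called), by 0.71 in the combination and by 0.92 in mobocertinib (both called by limma).

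Sdf2l1, a component of an ER chaperone complex, was at 67.2, 42.8 and 113 CPM in resistant nodules, 61.3, 58.3 and 48.6 CPM in the combination, 77.0, 70.7 and 50.6 CPM in T-DM1, 59.3, 46.2 and 35.5 CPM in mobocertinib, and 107 and 207 CPM in vehicle. Resistant 3 lay above vehicle 1, and the other groups did not overlap vehicle. Its log2 fold changes were -1.08 ± 0.38, -1.49 ± 0.38, -1.25 ± 0.38 and -1.74 ± 0.39 (edgeR adjusted p = 0.0387, 0.0105, 0.0262 and 0.00498 in resistant nodules, the combination, T-DM1 and mobocertinib). None was called with the length and GC correction, under which the value in resistant nodules turned to 0.48 (adjusted p = 0.189) and the others were -0.20, -0.02 and -0.56 (adjusted p = 0.606, 0.959 and 0.144). All 4 calls were lost without vehicle 2, and those in resistant nodules and T-DM1 also without resistant 1, resistant 2, T-DM1 1 or T-DM1 3. Over the libraries left out, the adjusted p reached 0.531, 0.228, 0.393 and 0.119. The longest transcript of Sdf2l1 is 1108 nt.

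Hspa5, the main ER chaperone BiP, was at 610, 847 and 794 CPM in resistant nodules, 669, 554 and 485 CPM in the combination, 843, 910 and 703 CPM in T-DM1, 643, 342 and 541 CPM in mobocertinib, and 816 and 980 CPM in vehicle. The combination and mobocertinib lay below vehicle, and resistant and T-DM1 libraries overlapped it. Hspa5 fell by 0.82 ± 0.29 on the log2 scale in mobocertinib (edgeR adjusted p = 0.0467; by 0.81 with the length and GC correction, adjusted p = 0.0471), and was not called in resistant nodules (-0.26), the combination (-0.66) or T-DM1 (-0.13; adjusted p = 0.499, 0.0985 and 0.749). Hsp90b1, the ER form of HSP90, was at 657, 422 and 531 CPM in mobocertinib against 753 and 1153 CPM in vehicle, with no overlap. Its value of -0.83 ± 0.30 was called (edgeR adjusted p = 0.0481), but not with the correction (-0.47, adjusted p = 0.245), and 15.7% of its exon bases are shared with other annotated genes. The Hspa5 call was lost without vehicle 1, vehicle 2, mobocertinib 2 or mobocertinib 3 (adjusted p up to 0.3), and that of Hsp90b1 without vehicle 2, mobocertinib 2 or mobocertinib 3 (adjusted p up to 0.476).

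In resistant nodules Canx, the lectin chaperone calnexin, was at 257, 530 and 379 CPM against 225 and 207 CPM in vehicle, and Dnajc3, an inhibitor of PERK and a BiP cochaperone, at 197, 317 and 229 CPM against 148 and 155 CPM in vehicle. Both were higher in all 3 resistant libraries, with resistant 2 highest. The log2 fold changes were 0.85 ± 0.28 for Canx and 0.71 ± 0.24 for Dnajc3 (edgeR adjusted p = 0.0284 and 0.0322). With the length and GC correction Canx was called (0.68, adjusted p = 0.0245) and Dnajc3 was not (0.13, adjusted p = 0.612), and both calls were lost without vehicle 1, vehicle 2 or resistant 2 (adjusted p up to 0.0934 and 0.0978). Of the degradation genes, Herpud1 and Edem1 were called in none. Herpud1 was at 246, 298 and 242 CPM in resistant nodules and 244, 274 and 351 CPM in the combination. It was at 203, 158 and 176 CPM in T-DM1, 530, 172 and 374 CPM in mobocertinib, and 225 and 286 CPM in vehicle. With the correction Edem1, which directs misfolded glycoproteins to degradation, was called lower in resistant nodules (-1.29), the combination (-1.35) and mobocertinib (-1.39; edgeR adjusted p = 0.0153, 0.0148 and 0.0137).

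The 35 genes were also taken by the length of their longest transcript, beside all tested genes of the same length. Among the 7 genes over 4 kb, 5 were called higher in resistant nodules and 3 in each drug group, and 0 lower. Of all tested genes over 4 kb, 45.3% were called higher in resistant nodules, 35.6% in the combination, 33.1% in T-DM1 and 34.2% in mobocertinib, and 4.57% to 5.69% lower. Among the 8 genes under 2 kb, 0 were called higher in any comparison with vehicle, and 3 were called lower in resistant nodules, 4 in the combination, 2 in T-DM1 and 3 in mobocertinib. Of all tested genes under 2 kb, 37.9% were called lower in resistant nodules, 34.2% in the combination, 30.5% in T-DM1 and 31.5% in mobocertinib, and 3.62% to 5.20% higher. With the length and GC correction the counts called higher and lower were 7 and 4 in resistant nodules, 3 and 4 in the combination, 5 and 1 in T-DM1 and 5 and 4 in mobocertinib, and the medians of the 35 were 0.43, 0.21, 0.30 and -0.12 on the log2 scale, against 0.26, 0.19, 0.25 and 0.21 over all genes. Genes called in the same direction before and after it numbered 5 in resistant nodules (Psph, Atf3, Canx, Eif2ak3 and Manf), 5 in the combination (Atf4, Mthfd2, Atf6, Eif2ak3 and Manf), 4 in T-DM1 (Slc7a5, Slc3a2, Eif2ak3 and Manf) and 5 in mobocertinib (Mthfd2, Hspa5, Atf6, Eif2ak3 and Manf). The cause of the length difference was not tested, and with 2 vehicle libraries it cannot be told apart from the absence of treatment.

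**Figure D3:**
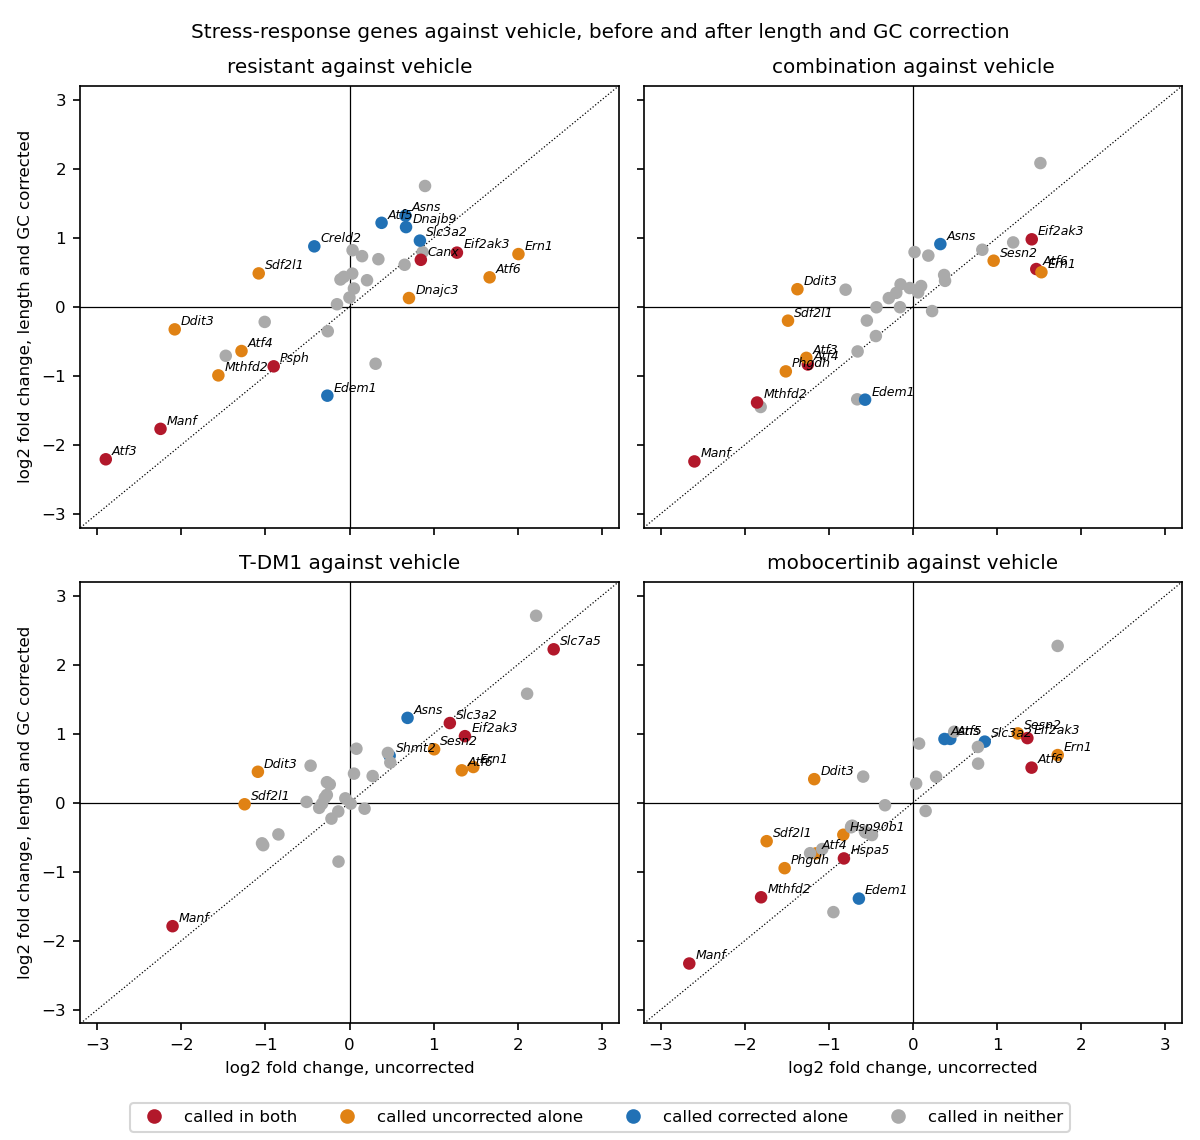
Log2 fold change against vehicle of each of the 35 genes without (horizontal axis) and with (vertical axis) the length and GC correction, one panel per comparison; colours show in which fit edgeR called the gene and the dotted line is equality. Manf and Eif2ak3 are called in both fits in all 4 panels, while Ddit3 lies above 0 after correction except in resistant nodules.

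T-DM1 was set against mobocertinib to compare the drugs given alone, without the vehicle libraries. The median log2 difference was 1.65 for the 3 transporter genes, 0.61 for the 6 enzymes and 0.48 for the 12 chaperones. It was 0.13 for the 8 genes of the integrated stress response, -0.03 for Atf6, Ern1, Eif2ak3 and Xbp1, and -0.24 for the 2 degradation genes. No single gene passed the test, as edgeR called 0 of the 35 genes and 0.0279% of all genes tested. At an unadjusted p under 0.05 there were 10 of 35 (28.6%), against 9.56% of all genes. The libraries did not overlap for 10 genes that were higher in T-DM1 (28.6%) and 2 that were lower (5.71%), against 9.64% and 9.32% of all genes. The median over the 35 was 0.44, against 0.01 over all genes, and 29 of the 35 were positive. Without T-DM1 2 the median over the 35 was 0.22. DESeq2 called 3, Slc7a11, Slc7a5 and Pdia4, all higher. The share of all genes that DESeq2 called is not given here, and the edgeR share does not stand in for it.

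Slc7a11 was at 15.5, 109 and 23.7 CPM in T-DM1 against 6.43, 4.54 and 6.86 CPM in mobocertinib. The T-DM1 libraries were all above mobocertinib, but T-DM1 2 was far above the other two. The log2 difference was 3.06 ± 0.74 (edgeR adjusted p = 0.197; DESeq2 adjusted p = 0.00142), and it was 1.72 without T-DM1 2. Slc7a5, whose libraries are given above, differed by 1.65 ± 0.44 (edgeR adjusted p = 0.226; DESeq2 adjusted p = 0.0216). Pdia4, a protein disulfide isomerase, was at 228, 276 and 176 CPM in T-DM1 against 159, 123 and 112 CPM in mobocertinib. All of its T-DM1 libraries were higher, and it differed by 0.79 ± 0.23 (edgeR adjusted p = 0.262; DESeq2 adjusted p = 0.043).

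Phgdh (20.4 ± 6.21 CPM in T-DM1 and 8.52 ± 0.992 in mobocertinib, SD, n = 3 each), Hspa5 (818 ± 106 and 509 ± 153), Xbp1 (336 ± 92.4 and 197 ± 39.8), Shmt2, Calr, Canx and Pdia3 were the other genes with T-DM1 libraries all higher. Atf5 and Ppp1r15a, the subunit that lets eIF2alpha be dephosphorylated, were the 2 with T-DM1 libraries all lower. Atf5 was at 73.4, 91.6 and 80.0 CPM in T-DM1 against 127, 120 and 144 CPM in mobocertinib, and Ppp1r15a at 26.5, 44.3 and 26.7 CPM against 57.0, 57.6 and 50.3 CPM. Atf4, Ddit3 and Asns overlapped between the groups, with log2 differences of 0.31 ± 0.31, 0.09 ± 0.35 and 0.32 ± 0.29 (edgeR adjusted p = 0.823, 0.978 and 0.799). Proliferation markers, 6 genes, summed to 79.0 to 137 CPM in T-DM1 and 9.02 to 27.8 CPM in mobocertinib. Plasma cell markers, 12 genes, summed to 37304, 4272 and 2301 CPM in T-DM1 1, 2 and 3, against 1819 to 2867 CPM in mobocertinib, with overlap. T-DM1 1 was also the T-DM1 library with the most Xbp1 (443 CPM). In resistant nodules the order was the reverse. Resistant 1, with 28223 CPM of plasma cell markers, had the least Xbp1 (277 CPM), and resistant 3, with 1573 CPM, the most (457 CPM). The part of these cells in the values was not tested.

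T-DM1 2 stood apart within its group, as the highest of all 14 libraries for Trib3, Chac1, Slc7a11, Slc3a2, Asns, Pdia4 and Eif2ak3. Trib3 was at 39.4 CPM there, against 2.93 and 6.80 CPM in the other T-DM1 libraries, and Chac1 at 7.21 against 2.04 and 2.71 CPM. Ddit3 at 38.4 CPM and Atf4 at 236 CPM were the highest values outside vehicle. T-DM1 2 also had the largest total of the series, 31.3 M counts, and alveolar type 2 markers of 78883 CPM, the highest outside vehicle.

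**Figure D4:**
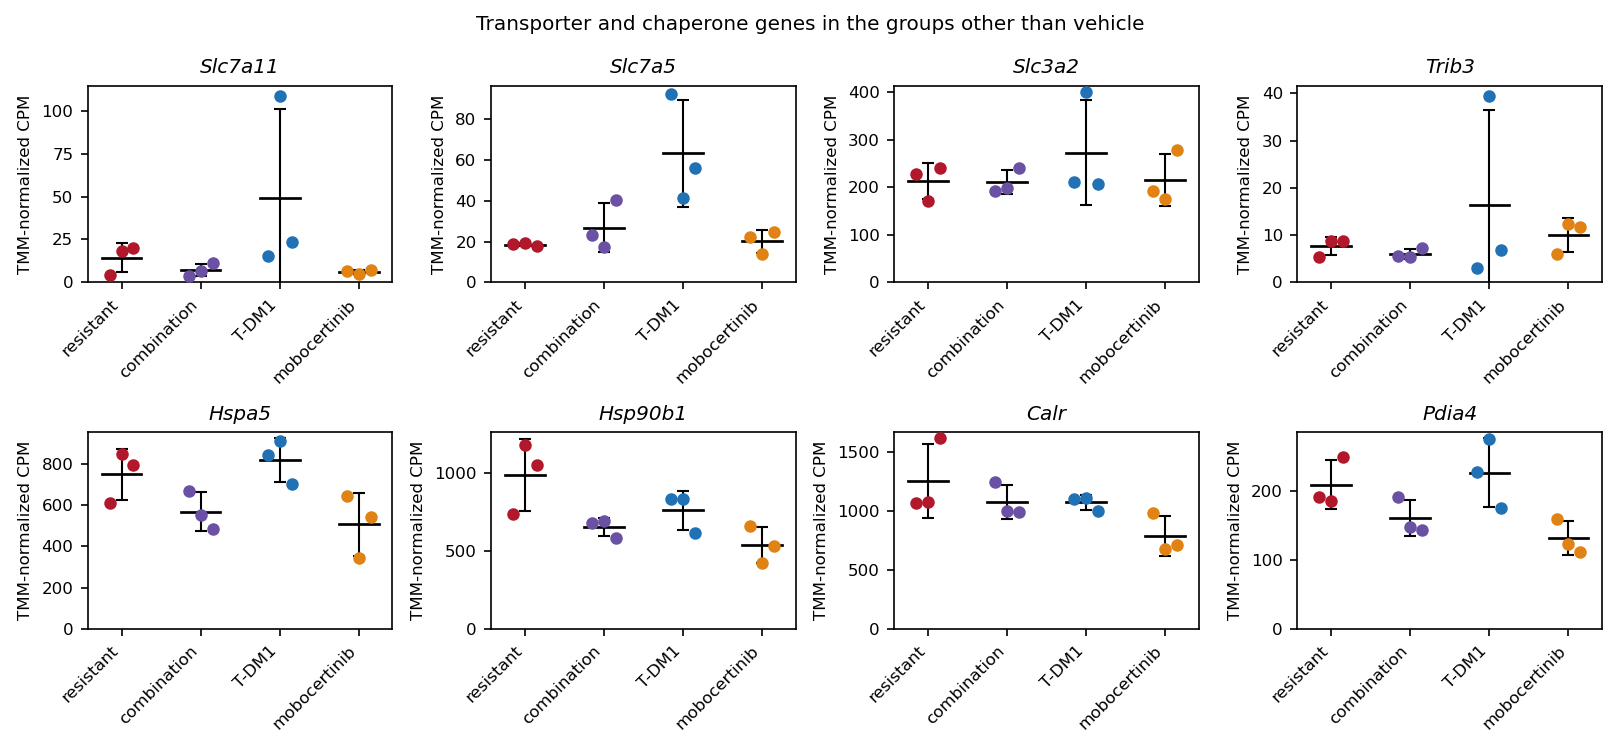
TMM-normalized CPM (vertical axes, starting at 0) of 3 transporter genes, Trib3 and 4 chaperone genes in the 4 groups other than vehicle; points are libraries, horizontal bars the mean and error bars the SD (n = 3 each, cut at 0). T-DM1 2 is the high point for Slc7a11 (109 CPM), Slc3a2 (401 CPM) and Trib3 (39.4 CPM), and resistant libraries lie above mobocertinib for Hsp90b1, Calr and Pdia4.

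Resistant nodules were set against mobocertinib-treated nodules to ask what differs once tumors grow under the drug. The median log2 difference was 0.59 for the 12 chaperone genes and -0.48 for the 8 genes of the integrated stress response. The median log2 difference was 0.27 for the 6 enzymes, -0.02 for the 3 transporters, 0.27 for Atf6, Ern1, Eif2ak3 and Xbp1, and -0.04 for the 2 degradation genes. No single gene passed the test, as edgeR called 0 of the 35 genes (0.00558% of all genes) and DESeq2 called 0. At an unadjusted p under 0.05 there were 10 of 35 (28.6%), 8 higher and 2 lower, against 7.77% of all genes. The libraries did not overlap for 5 genes that were higher (14.3%) and 4 that were lower (11.4%), against 4.33% and 5.75% of all genes. Of the 12 chaperone genes, 7 had an unadjusted p under 0.05, and the median was 0.29 over the 35 and 0.07 over all genes.

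Hsp90b1 was at 733, 1181 and 1050 CPM in resistant nodules against 657, 422 and 531 CPM in mobocertinib. Calr, calreticulin, was at 1068, 1075 and 1612 CPM against 983, 673 and 707 CPM, and Pdia4 at 192, 186 and 250 CPM against 159, 123 and 112 CPM in the same groups. In all 3 genes the lowest resistant library was above the highest mobocertinib library. The log2 differences were 0.88 ± 0.27 for Hsp90b1, 0.67 ± 0.26 for Calr and 0.68 ± 0.23 for Pdia4, and 0.87 ± 0.28 for Xbp1 and 0.56 ± 0.21 for Dnajc3, whose libraries did not overlap either (edgeR adjusted p = 0.622 each). Hspa5 overlapped between the groups and differed by 0.56 ± 0.27 (edgeR adjusted p = 0.622). Among the 7 genes with an ERSE in the promoter window, Hsp90b1, Calr, Canx, Pdia6 and Dnajc3 had an unadjusted p under 0.05, and Hspa5 and Creld2 did not. Of all 12 chaperone genes, 7 had such a p. Manf, among these 12, had no window to search, and a link between the ERSE and these values was not tested. None of these genes was called by edgeR.

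Atf3, at 6.11, 5.02 and 5.10 CPM in resistant nodules against 11, 27.5 and 13.4 CPM in mobocertinib, differed by -1.68 ± 0.44 (edgeR adjusted p = 0.622; DESeq2 adjusted p = 0.09). Ddit3, at 15.8, 9.75 and 10.1 CPM against 20.1, 29.6 and 17.1 CPM, differed by -0.90 ± 0.36 (edgeR adjusted p = 0.622). Chac1 and Ppp1r15a were the other genes with resistant libraries all lower. Atf4 and Asns overlapped, at -0.13 ± 0.31 and 0.29 ± 0.29 (edgeR adjusted p = 0.909 and 0.758). Plasma cell markers summed to 28223 CPM in resistant 1 and to 2457 and 1573 CPM in resistant 2 and 3, against 1819 to 2867 CPM in mobocertinib, and their part in these values was not tested. Without resistant 3 the median of the 35 was 0.054, and that of all genes was 0.053. With any other library of these groups left out, the median of the 35 ran from 0.199 to 0.353.

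The combination was set against each drug alone to ask what the second drug adds. Against mobocertinib, edgeR and DESeq2 called 0 of the 35 genes and edgeR 0% of all genes. At an unadjusted p under 0.05 there was 1 gene (2.86%), Atf5, against 1.46% of all genes. Calr was the 1 gene with combination libraries all higher (3.49% of all genes), at 1239, 996 and 990 CPM against 983, 673 and 707 CPM in mobocertinib, and Sesn2, Atf5 and Ppp1r15a were the 3 with libraries all lower (3.21% of all genes). Atf5 was at 67.0, 95.4 and 97.9 CPM in the combination against 127, 120 and 144 CPM in mobocertinib. Its log2 difference was -0.59 ± 0.25 (edgeR adjusted p = 1), and those of Atf4, Ddit3, Asns, Hspa5 and Xbp1 were -0.10 ± 0.31, -0.20 ± 0.35, -0.05 ± 0.29, 0.16 ± 0.27 and 0.52 ± 0.28, with overlap.

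Against T-DM1, edgeR called 0 of the 35 genes in the combination and 0% of all genes, with 4 genes (11.4%) at an unadjusted p under 0.05, against 5.10% of all genes. These were Slc7a11, Slc7a5, Phgdh and Mthfd2, all lower in the combination. Slc7a11 was at 3.90, 6.65 and 11.1 CPM in the combination against 15.5, 109 and 23.7 CPM in T-DM1. Its log2 difference of -2.78 ± 0.73 was called by DESeq2 alone (adjusted p = 0.0165; edgeR adjusted p = 0.76), and it was -1.44 without T-DM1 2. Slc7a5 differed by -1.24 ± 0.44 (edgeR adjusted p = 0.939), at 23.1, 17.2 and 40.3 CPM in the combination against 92.5, 41.5 and 55.9 CPM in T-DM1. Libraries of 5 genes were all lower in the combination (Phgdh, Shmt2, Slc7a11, Slc7a5 and Hspa5, 14.3%, against 7.81% of all genes) and of 2 all higher (Herpud1 and Atf6, 5.71%, against 8.41%). Atf4, Ddit3, Asns and Xbp1 overlapped, at -0.40 ± 0.31, -0.28 ± 0.35, -0.36 ± 0.29 and -0.25 ± 0.28.

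Other genes of the same pathways, in 6 further lists, were read in the comparisons with vehicle. Of 24 further ATF4 target genes that passed the filter, 4 were called higher and 4 lower in resistant nodules, 4 and 3 in the combination, 5 and 2 in T-DM1, and 2 and 2 in mobocertinib. Corrected for length and GC, the counts higher and lower were 3 and 4, 2 and 3, 4 and 1, and 2 and 2 in the same order of groups. Of all genes, 22.0% were called higher and 19.0% lower in resistant nodules, 17.6% and 17.4% in the combination, 16.7% and 14.9% in T-DM1, and 16.8% and 16.1% in mobocertinib. With the correction the shares of all genes were 19.3% and 12.6%, 16.2% and 10.8%, 15.1% and 9.30%, and 15.5% and 10.1%. Of 20 cytosolic tRNA synthetase genes, which load amino acids onto tRNA, 4 were called higher and 1 lower in resistant nodules, 4 and 0 in the combination, 5 and 0 in T-DM1, and 3 and 0 in mobocertinib, and with the correction 7 and 1, 8 and 1, 9 and 1, and 6 and 1. Eprs, for glutamate and proline, averaged 98.5 ± 15.8 CPM in resistant nodules, 86.7 ± 16.7 in the combination, 91.0 ± 13.6 in T-DM1, 76.6 ± 4.64 in mobocertinib and 31.7 ± 0.487 in vehicle (SD, n = 3, 3, 3, 3 and 2), and was called higher in all 4, with the correction too (0.87, 0.96, 1.08 and 0.82). Of 19 genes of ER translocation and export, 3 were called higher and 9 lower in resistant nodules, 1 and 10 in the combination, 2 and 7 in T-DM1, and 1 and 11 in mobocertinib, and with the correction 1 and 6, 1 and 7, 2 and 6, and 1 and 8. Sec61g, a subunit of the ER translocon, averaged 29.2 ± 6.96 CPM in resistant nodules, 32.4 ± 12.6 in the combination, 35.8 ± 6.57 in T-DM1, 42.1 ± 11.8 in mobocertinib and 380 ± 17.1 in vehicle, and its log2 fold changes with the correction were -2.79, -2.66, -2.55 and -2.31, all called.

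Of 18 further ER folding and redox genes, 2 were called higher and 6 lower in resistant nodules, 1 and 7 in the combination, 1 and 6 in T-DM1, and 0 and 7 in mobocertinib, against 22.0% and 19.0%, 17.6% and 17.4%, 16.7% and 14.9%, and 16.8% and 16.1% of all genes. After correction the counts were 1 and 4, 1 and 6, 2 and 5, and 1 and 6 in the same order. Prdx4, an ER peroxiredoxin, averaged 52.4 ± 16 CPM in resistant nodules, 50.9 ± 8.29 in the combination, 65.1 ± 17.3 in T-DM1, 48.4 ± 11.6 in mobocertinib and 422 ± 40.9 in vehicle, and was called lower in all 4 with the correction too. Of 15 further ER degradation genes, 5, 4, 4 and 4 were called higher in the same order of groups, and 1 lower in each, and with the correction 6 and 2, 5 and 2, 4 and 1, and 5 and 1. Herpud2 and Derl2 were called in opposite directions in all 4, before and after the correction, Herpud2 higher (1.57, 1.44, 1.15 and 1.46) and Derl2 lower (-1.76, -1.81, -1.60 and -1.77). Of 16 further sensors and regulators, 7, 6, 5 and 5 were called higher and 1 lower in each, and with the correction 6 and 3, 6 and 2, 4 and 1, and 4 and 2. Eif2ak1, the heme-regulated eIF2alpha kinase, was called higher in all 4, at 1.58 ± 0.22, 1.61 ± 0.22, 1.13 ± 0.22 and 1.54 ± 0.22, and with the correction at 1.15, 1.27, 0.81 and 1.20.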

How the data were processed

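Total RNA of 14 libraries was read from processed tables of mm10 data. Per the submitters' processing notes, STAR and RSEM were used. Nothing used here states their versions, their roles, the gene annotation or whether counting kept strand. The authors deposited whole-number counts for 55291 symbols and, in a second table, TPM values scaled by length and library size. Samples were grouped by the treatment in the labels, and columns were matched by sample title. The 35 genes and the further lists were chosen with earlier results of these data known.

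Genes were tested in edgeR 4.0.16 (R 4.3.3) with TMM factors, filterByExpr and the robust quasi-likelihood F-test, in one fit over 14 libraries and 17933 genes (9 residual degrees of freedom). Benjamini-Hochberg adjusted p below 0.05 over all genes was a call, and the SE is the size of the log2 fold change over the square root of F. All 35 genes could be named; from each further list, up to 3 called genes per comparison by smallest p. CPM are TMM-normalized. The length and GC correction used per-library smooth offsets on GENCODE M21 transcripts (17597 genes).

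Alternatives were RLE and upper-quartile factors, no filter, the compared groups only, each library left out, DESeq2 1.42.0, limma 3.58.1 on log2(TPM + 1) (15722 genes), and, added after seeing the data, TPM centred on each library's median. All 13 pairs of libraries within groups differed beyond sampling noise. The fit was also run on counts simulated from the means and dispersions of these data. Those counts hold no length difference between libraries, so they could not test its effect on the comparisons with vehicle.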

Additional observations from a re-analysis of the deposited data

How the results depend on the processing

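The 2 vehicle libraries limit every comparison with vehicle, and low counts limit Chac1, at 0 to 7.21 CPM. No paired analysis was possible because the labels give the groups no shared replicate numbers. Counts of the 35 genes called against vehicle (12 in resistant nodules, 11 in the combination, 9 in T-DM1 and 12 in mobocertinib) ran, with each library left out in turn, from 9 to 12 in resistant nodules, 5 to 10 in the combination, 4 to 13 in T-DM1 and 6 to 13 in mobocertinib. Without vehicle 2 the count was the lowest of each, in resistant nodules (9) equal to those without vehicle 1 or resistant 2. With the compared groups only, 6 were called in resistant nodules, and with the length and GC correction 7 in the combination. With DESeq2, 3 were called in T-DM1 against mobocertinib and 1 in the combination against T-DM1, where edgeR called 0. The shares of all genes that DESeq2 called there are not given. With limma on log2(TPM + 1) the counts against vehicle were 24, 26, 27 and 25 in resistant nodules, the combination, T-DM1 and mobocertinib, nearly all higher, and the median of all genes lay at 1.27, 1.18, 1.18 and 1.11. With TPM centred on each library's median, chosen after seeing the data, the counts were 12, 11, 7 and 11, and no called value changed sign. The upper-quartile and RLE factors and the fit without a filter turned no called value. The cause of the turns given next was not tested.

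The values listed here were called with or without the setting and changed sign, and values called in neither are not listed. With the length and GC correction the log2 fold change against vehicle turned for Ddit3 in mobocertinib (0.34), Ddit3 in T-DM1 (0.45), Ddit3 in the combination (0.26), Sdf2l1 in resistant nodules (0.48), Creld2 in resistant nodules (0.88). With TPM, in resistant nodules the values that turned were Atf4 0.46, Psat1 1.52, Psph 0.62, Mthfd2 0.12, Hspa5 1.75, Calr 1.94, Pdia3 1.77, Pdia6 1.69, Sdf2l1 0.70, Creld2 1.34. In the combination the values that turned were Atf4 0.50, Ddit3 0.43, Psph 0.99, Atf3 0.42, Atf5 1.55, Hspa5 1.37, Hsp90b1 1.25, Calr 1.66, Pdia3 1.61, Pdia4 1.72, Pdia6 1.34, Xbp1 1.52, Sdf2l1 0.36, Creld2 0.97. In T-DM1 the values that turned were Ddit3 0.51, Phgdh 0.98, Psph 1.11, Atf5 1.40, Hspa5 1.81, Hsp90b1 1.37, Calr 1.56, Pdia3 1.62, Pdia6 1.40, Herpud1 1.08, Sdf2l1 0.51, Creld2 1.20. In mobocertinib the values that turned were Atf4 0.50, Ddit3 0.51, Psph 0.88, Hspa5 1.07, Hsp90b1 0.87, Calr 1.10, Pdia3 1.08, Pdia4 1.35, Pdia6 0.93, Xbp1 0.92, Sdf2l1 0.00, Creld2 1.07.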
